A study of Homo sapiens with 11 samples.

Results

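Ancient L1 elements are the fossil copies of LINE-1, the long interspersed retrotransposon that copied itself through mammalian genomes by reverse transcription. The names L1MA to L1ME run roughly from younger to older mammalian lineages, and HAL1 elements are L1 relatives that carry the first L1 open reading frame but lack the second, which encodes the reverse transcriptase. Such copies are old, truncated and no longer able to move, and they are commonly transcribed as passengers inside introns and other long transcripts. The set described here was chosen by name alone, as every element whose deposited name begins with L1M or HAL1 in the L1 family, and it holds 794568 of the 5622516 repeat elements listed. By group the set holds 95128 L1MA, 94511 L1MB, 121936 L1MC, 40879 L1MD, 281308 L1ME and 36029 HAL1 elements, and 124777 L1M elements with a number in place of the letter or with neither (L1M1 to L1M8 and their variants). Together they form 92 subfamilies.

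The cells were HCT116, a human colorectal cancer line, and their RNA was measured as RNA bound by J2, an antibody to double-stranded RNA, in 1 library for each of 3 conditions. The siLuc DMSO cells received an siRNA against luciferase, the control, and the solvent DMSO. The siLuc DAC cells received the same siRNA and decitabine (DAC), a drug that inhibits DNA methyltransferases, at 500 nM for 5 days per the labels. The siStau1 DAC cells received an siRNA against Staufen1, which recognises double-stranded stretches of RNA, and the same decitabine treatment. The labels of these libraries name J2 while the shared protocol text names a Staufen1 antibody, so which antibody was used is uncertain. A J2 library of siStau1 cells without decitabine was not analysed here, so the siRNA and drug differ together between siStau1 DAC and siLuc DMSO. With 1 library per condition there is no replicate spread and no test between conditions. Intervals cover counting error only, and with no total RNA value of these elements used here, more RNA of an element and a larger J2-bound part of it cannot be told apart.

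The libraries held 71473124 reads on repeat elements with siLuc DMSO, 68944777 with siLuc DAC and 83037330 with siStau1 DAC. Alu elements, short primate retrotransposons that form double-stranded RNA when inverted copies pair, took 57.5%, 46.8% and 54.0% of these reads, so the room left for all other repeats differed between libraries. The siLuc DAC library stood apart in another way: it lacked any read for 7605 of the 354182 elements that reached 20 reads in both remaining libraries, whereas siLuc DMSO and siStau1 DAC lacked 699 and 13 in the same way. The part of these differences in the results was not tested beyond the values given beside each. In total RNA, the targeted gene STAU1 stood at 35.5 FPKM for siLuc DMSO, 33.7 for siLuc DAC and 27.1 for siStau1 DAC in the authors' deposited table, with 1 value per group of 2 libraries. That table did not call the difference between siStau1 DAC and siLuc DAC (q-value 0.685), so a loss of STAU1 is not shown by it. Of 8 colorectal epithelial markers, 6 had at least 1 FPKM in these 3 groups, while VIL1 was under 1 FPKM throughout and LGALS4 was listed at 0 for siLuc DMSO. Of 12 fibroblast, endothelial and leukocyte markers, 10 stayed under 1 FPKM in all 3 groups, and the highest value was 8.60 FPKM, for COL1A1 in siLuc DAC. The summed epithelial markers went from 2601 FPKM in siLuc DMSO to 8199 in siLuc DAC, while EPCAM by itself went from 259 to 117 (q-value 0.0157 in the authors' deposited table). In this comparison the markers with lower q-values than EPCAM were all higher in siLuc DAC. They were epithelial KRT19 (537 to 1419 FPKM, q-value 0.00162) and LGALS4 (0 to 1.495, q-value 0.00293), and endothelial PECAM1 (0 to 0.633, q-value 0.00162). The summed fibroblast markers were lowest in siLuc DMSO, at 1.62 FPKM, and highest in siLuc DAC, at 9.50. Endothelial ones were lowest in siLuc DMSO (0.139) and highest in siStau1 DAC (1.57). Leukocyte ones were likewise lowest in siLuc DMSO (0.0968) and highest in siStau1 DAC (2.62). The part of these markers in the J2 results was not tested.

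Ancient L1 elements held about 2 times the share of J2 reads in siLuc DAC that they held in siLuc DMSO, and an intermediate share in siStau1 DAC. Their reads numbered 1098848 with siLuc DMSO, 2215517 with siLuc DAC and 1866746 with siStau1 DAC. As a share of all reads on repeats this was 1.54% (Wilson 95% interval 1.53% to 1.54%, with each pair of mates as 1 draw), 3.21% (3.21% to 3.22%) and 2.25% (2.24% to 2.25%). The ratio of shares was 2.09-fold for siLuc DAC over siLuc DMSO, a log2 ratio of 1.06 (counting interval 1.06 to 1.07). For siStau1 DAC over siLuc DAC the log2 ratio was −0.52 (−0.52 to −0.51), and for siStau1 DAC over siLuc DMSO it was 0.55 (0.54 to 0.55). Scaled to reads outside Alu, the same 3 log2 ratios were 0.74, −0.31 and 0.43, and with the factors the authors applied to their columns they were 1.95, −0.84 and 1.11. The size therefore depended on the scaling, and the direction was the same under all 3 scalings.

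Younger L1 elements of the same libraries, summed, differed less between conditions. The 183285 primate L1 elements (L1P and L1HS), which include the lineage still active in humans, held 2.36% of reads with siLuc DMSO, 2.47% with siLuc DAC and 2.24% with siStau1 DAC. Their log2 ratios were 0.07 for siLuc DAC over siLuc DMSO and −0.14 for siStau1 DAC over siLuc DAC. The number of ancient L1 reads per primate L1 read, which no scaling can change, was 0.652 with siLuc DMSO, 1.30 with siLuc DAC and 1.00 with siStau1 DAC. L2, a still older LINE family of 534592 elements, lay between them, with log2 ratios of 0.65 and −0.22 in the same comparisons. None of these differences between families has a test, since each rests on the same 3 libraries.

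The age groups of L1 differed, broadly in their order of age, between siLuc DAC and siLuc DMSO. The order did not extend to the still older L2 family, whose 0.65 was below the 0.70 of L1MA. Within the younger L1 elements the log2 ratio was −0.15 for L1HS, 0.04 for L1PA, 0.05 for other L1P and 0.51 for L1PB. L1PB had the same order of libraries as ancient L1, with log2 ratios of −0.27 for siStau1 DAC over siLuc DAC and 0.24 for siStau1 DAC over siLuc DMSO. For siLuc DAC over siLuc DMSO it was 0.70 for L1MA, 1.14 for L1MB, 1.15 for L1MC, 1.08 for L1MD and 1.38 for L1ME, so the oldest lettered group stood highest and the youngest lowest, with L1MD out of order between them. L1ME went from 249112 reads (0.349% of the library) in siLuc DMSO to 623572 (0.904%) in siLuc DAC and 475471 (0.573%) in siStau1 DAC. L1MA went from 168506 reads (0.236%) to 264897 (0.384%) and 237539 (0.286%). The number of L1ME reads per L1MA read, again free of scaling, was 1.48, 2.35 and 2.0 in the order siLuc DMSO, siLuc DAC and siStau1 DAC. L1MB and L1MC were close to each other, with counting intervals of 1.13 to 1.15 and 1.14 to 1.17 that overlap, so their order cannot be read. The order of the other groups has no test either, since these intervals leave out variation between libraries.

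The remaining groups fell inside this range. HAL1 elements had 64578 reads with siLuc DMSO, 129049 with siLuc DAC and 111974 with siStau1 DAC, with log2 ratios of 1.05 for siLuc DAC over siLuc DMSO and −0.47 for siStau1 DAC over siLuc DAC. L1MD, the smallest lettered group, had 54894, 111742 and 93453 reads. The L1M elements without a letter had 209805, 333855 and 314389 reads and the weakest difference between siStau1 DAC and siLuc DAC, a log2 ratio of −0.35 against −0.66 for L1ME, −0.43 for L1MA and −0.50 to −0.53 for L1MB, L1MC and L1MD. In all 7 groups the order of the libraries was the same: siLuc DMSO lowest, siStau1 DAC in the middle and siLuc DAC highest.

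**Figure D1:**
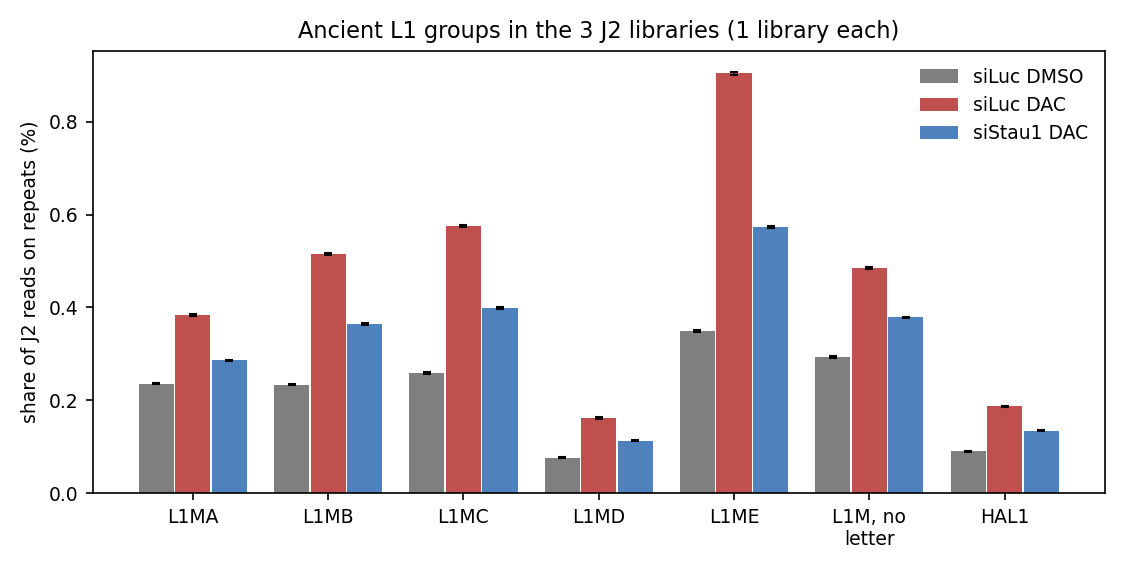
Share of J2 reads on repeat elements (vertical axis, %) held by each group of ancient L1 elements in siLuc DMSO, siLuc DAC and siStau1 DAC, 1 library each; error bars are Wilson 95% intervals for counting error only. In every group the siLuc DAC bar is highest and the siLuc DMSO bar lowest, and the widest gap is that of L1ME, from 0.349% to 0.904%.

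Scaled to all reads on repeats, the direction was nearly uniform from subfamily to subfamily. All 92 subfamilies had at least 1000 reads over the 3 libraries. In siLuc DAC over siLuc DMSO, 90 were higher and 2 lower, 58 had a log2 ratio above 1, and the median was 1.13. In siStau1 DAC over siLuc DAC, 87 were lower and 5 higher, with a median of −0.55, and in siStau1 DAC over siLuc DMSO 88 were higher and 4 lower, with a median of 0.60. These comparisons share libraries, so their counts are not independent. Under this scaling the exceptions lay in the L1M group without a letter. It held both subfamilies that were lower in siLuc DAC and all 5 that were higher in siStau1 DAC than in siLuc DAC. Scaling to reads outside Alu moves every subfamily as it moves the whole set (1.06 to 0.74 and −0.52 to −0.31). Subfamilies with small log2 ratios would then change sides, also outside this group, such as L1MEg1 at −0.04 in siStau1 DAC over siLuc DAC. Without the element with the most reads in each subfamily, 90 were higher and 2 lower in siLuc DAC over siLuc DMSO, and 4 were higher and 88 lower in siStau1 DAC over siLuc DAC.

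The 5 highest subfamilies in siLuc DAC over siLuc DMSO were all L1ME. L1ME3D had 1804 reads with siLuc DMSO, 6515 with siLuc DAC and 3789 with siStau1 DAC, and its log2 ratio of siLuc DAC over siLuc DMSO was 1.90 (counting interval 1.80 to 2.01). L1ME3F had 2177, 7497 and 4613 reads and a log2 ratio of 1.84. L1ME4a, a large subfamily of 29875 elements, had 13251, 45575 and 28106 reads and a log2 ratio of 1.83 (1.79 to 1.87). L1ME3Cz, with 7406, 23058 and 15757 reads, and L1ME3C, with 2544, 7739 and 5657, followed at 1.69 and 1.66. In these subfamilies no single element held more than 8.79% of the reads of a library, so the difference was spread over many copies. L1ME3D, L1ME3F and L1ME4a were also the 3 lowest of the 92 in siStau1 DAC over siLuc DAC, at −1.05, −0.97 and −0.97, ahead of L1M at −0.91 and L1MA10 at −0.87. Both comparisons contain the siLuc DAC library, so a high value there moves them in opposite directions.

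The 5 lowest subfamilies in siLuc DAC over siLuc DMSO were L1M2 and L1M3 variants with few copies. L1M2a had 6024 reads with siLuc DMSO, 4471 with siLuc DAC and 6898 with siStau1 DAC from 459 elements, a log2 ratio of −0.38 (−0.46 to −0.30). A single element, L1M2a_10455, weighed on that value: it had 938 reads with siLuc DMSO, 2 with siLuc DAC and 1074 with siStau1 DAC. Without it the L1M2a log2 ratio was −0.13. L1M3e had 6544, 5886 and 7448 reads, a log2 ratio of −0.10 that became 0.05 without its top element, which held 24.6% of its siLuc DMSO reads. L1M2b (2868, 2769 and 3153 reads), L1M2a1 (1138, 1116 and 1537) and L1M2c (5003, 5130 and 5384) had log2 ratios of 0.00, 0.02 and 0.09, of which the first became −0.23 and the last 0.00 without the top element. These subfamilies were the most heavily read per copy in siLuc DMSO: of the 92, they held the 5 highest levels, and L1M2b had 188 reads per 1000 elements and 1000000 library reads and L1M2a 184, against 5.73 for L1ME3D and 6.21 for L1ME4a.

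The 5 highest subfamilies in siStau1 DAC over siLuc DAC were L1M2a (0.36), L1M2a1 (0.19), L1M3de (0.08), L1M3e (0.07) and L1M1 (0.03). L1M3de had 2094 reads with siLuc DMSO, 3198 with siLuc DAC and 4064 with siStau1 DAC, and its value became −0.01 without its top element. The value of L1M2a became 0.11 without L1M2a_10455, and that of L1M3e −0.12 without its top element. L1M1 was the largest of these, with 10162 elements and 73781, 79328 and 97437 reads. Its log2 ratio of siLuc DAC over siLuc DMSO was 0.16, nearer to the primate L1 value of 0.07 than to the 0.72 of all L1M elements without a letter.

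**Figure D2:**
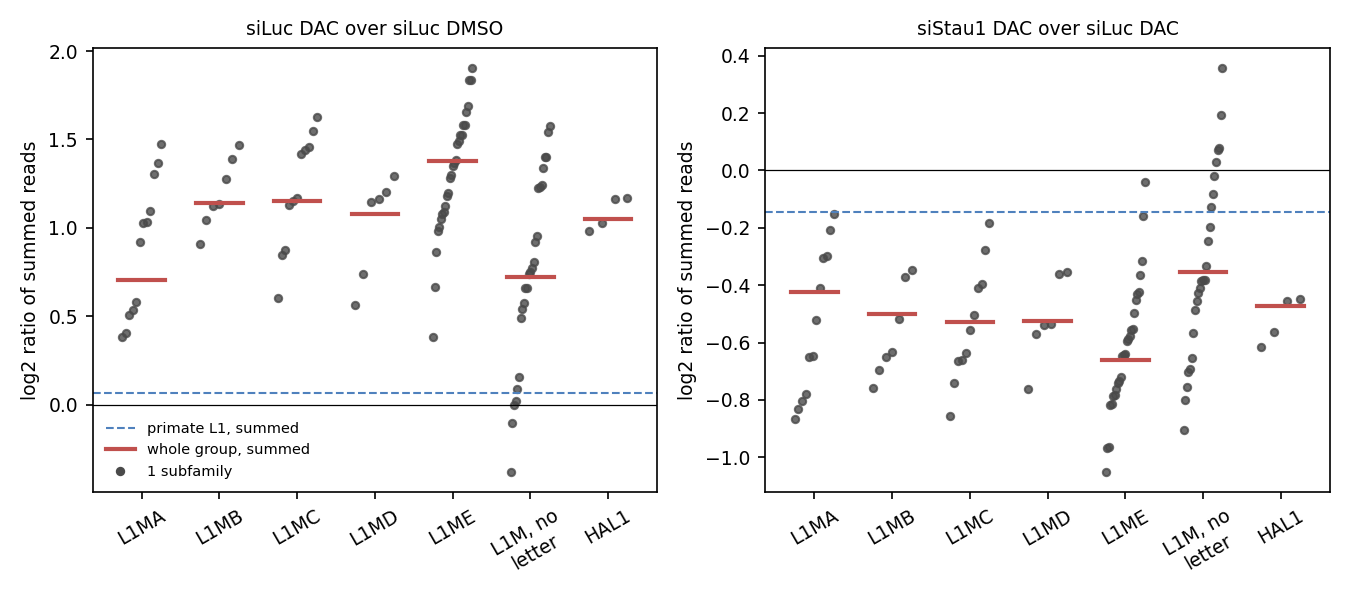
Log2 ratio of summed reads for each of the 92 subfamilies (points), arranged by group on the horizontal axis, for siLuc DAC over siLuc DMSO (left) and siStau1 DAC over siLuc DAC (right); red lines are whole groups and the dashed line is primate L1. On the left all points but a few L1M subfamilies without a letter lie above the primate L1 line at 0.07, and L1ME reaches 1.90; on the right 87 of 92 points lie below 0.

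In each of the other groups the subfamily with the most reads kept the group's order of libraries. L1MC4, with the most J2 reads of the set, had 71263 reads with siLuc DMSO, 126232 with siLuc DAC and 115586 with siStau1 DAC, and log2 ratios of 0.88 for siLuc DAC over siLuc DMSO and −0.40 for siStau1 DAC over siLuc DAC. L1MB7 had 56602, 112752 and 104855 reads and log2 ratios of 1.05 and −0.37, which became 1.27 and −0.61 without the 1 element that held 22.6% of its siLuc DMSO reads. L1ME1 had 26834, 77371 and 52986 reads and log2 ratios of 1.58 and −0.81. L1MA3 had 37803, 51822 and 50477 reads, with log2 ratios of 0.51 and −0.31, the smallest pair among them after L1M1. HAL1 proper, with 47924, 94308 and 83295 reads, and L1MD2, with 17065, 36430 and 30196, had log2 ratios of 1.03 and 1.15 in siLuc DAC over siLuc DMSO.

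L1MA repeated on a finer scale the order seen between groups. From L1MA1 to L1MA3 the log2 ratio of siLuc DAC over siLuc DMSO was 0.41, 0.38 and 0.51, and from L1MA6 to L1MA10 it was 1.09, 1.37, 1.03, 1.30 and 1.47. L1MA4 and L1MA5 stood between, at 0.92 and 0.58, and L1MA5 was at 0.81 without the element that held 57.2% of its siLuc DMSO reads. Across the 10 numbered L1MA subfamilies Spearman's rho between the number and the log2 ratio was 0.915, and it was also 0.915 without the top elements. In siStau1 DAC over siLuc DAC the values went from −0.21 for L1MA1 and −0.15 for L1MA2 to −0.78 for L1MA9 and −0.87 for L1MA10, with a rho of −0.891. For siLuc DAC over siLuc DMSO the 7 numbered L1MB subfamilies showed no such order, with a rho of −0.321, or 0.036 without the top elements. The 8 subfamilies L1M1 to L1M8 had a rho of 0.357, or 0.524 without the top elements. In siStau1 DAC over siLuc DAC the L1MB rho was 0.536, or 0.357 without the top elements. That of L1M1 to L1M8 was −0.333, or −0.690 without them, the same direction as in L1MA. All of these subfamilies share the same libraries, so the rho values describe them and are not tests.

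**Figure D3:**
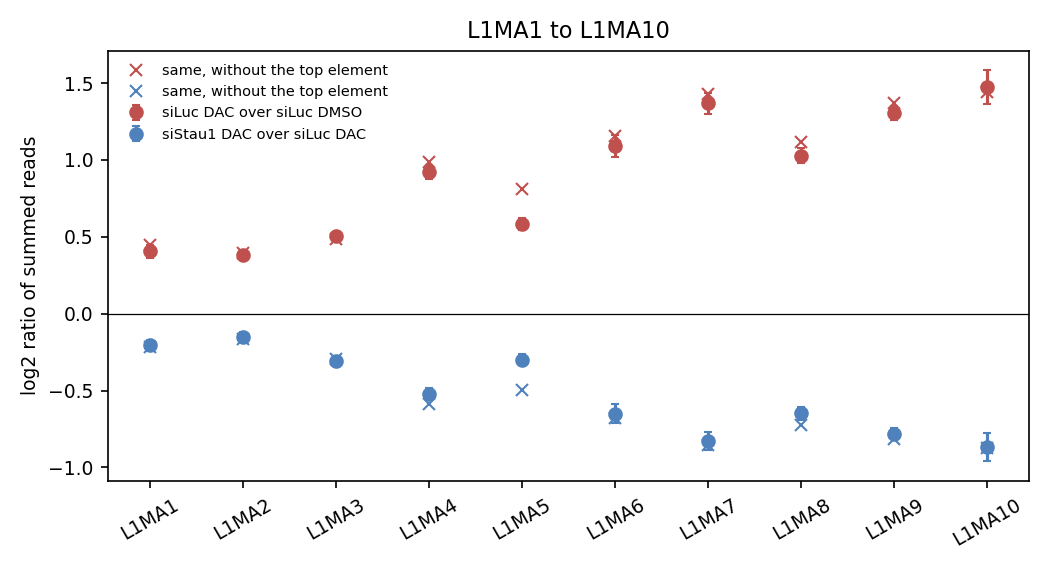
Log2 ratio of summed reads (vertical axis) for L1MA1 to L1MA10 in siLuc DAC over siLuc DMSO (red) and siStau1 DAC over siLuc DAC (blue), with 95% counting intervals; crosses leave out the element with the most reads. The red values run from 0.41 for L1MA1 to 1.47 for L1MA10 and the blue values from −0.21 to −0.87.

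The number of ancient L1 copies seen at all differed between libraries in the same order as the reads. Elements with at least 1 read numbered 81112 (10.2% of the set) with siLuc DMSO, 138160 (17.4%) with siLuc DAC and 107624 (13.5%) with siStau1 DAC. Of primate L1 elements 26.05%, 23.4% and 26.8% had a read, so there siLuc DAC was lowest. Of all repeat elements 23.6%, 24.8% and 25.996% had a read, so there siLuc DAC was also above siLuc DMSO, but siStau1 DAC was highest. Among ancient L1 elements 617056 (77.7%) had no read in any library and 51975 (6.54%) had reads in all 3, beside 65.6% and 16.2% of all elements. Those read in siLuc DAC alone numbered 48374 (6.09%), against 10990 (1.38%) in siLuc DMSO alone and 20739 (2.61%) in siStau1 DAC alone. Over all repeat elements the corresponding shares were 4.08%, 2.78% and 3.74%. By group, L1ME had the widest gap in detection, from 8.97% of elements in siLuc DMSO to 17.5% in siLuc DAC, while L1MA went from 9.19% to 13.2%.

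Reads on ancient L1 were also less concentrated in siLuc DAC. The elements that together held 50% of the reads numbered 3074 with siLuc DMSO, 7889 with siLuc DAC and 4283 with siStau1 DAC. They were 3.79%, 5.71% and 3.98% of the ancient L1 elements with a read. The 100 elements with the most reads held 12.3%, 7.08% and 10.3% of the reads. For primate L1 the same top 100 held 19.3%, 20.6% and 19.1%, a narrower range. For all repeat elements it held 22.6%, 25.1% and 20.3%, so there siLuc DAC was the most concentrated.

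The difference was larger among elements with fewer reads, in ancient L1 as in L2 and over all repeat elements. To see this without using the compared libraries, elements were sorted by their reads in the library left out of the comparison. For siLuc DAC over siLuc DMSO, ancient L1 elements with 0 reads in siStau1 DAC had a summed log2 ratio of 2.22, from 56682 siLuc DMSO reads and 254088 siLuc DAC reads. The value was 1.85 for 1 to 9 reads, 1.45 for 10 to 19, 1.12 for 20 to 49, 0.84 for 50 to 99, 0.62 for 100 to under 500 and 0.30 for the 281 elements with 500 or more. Primate L1 stayed between 0.04 and 0.13 in every one of these levels, so ancient L1 was above primate L1 at each level. L2 declined in the same way, from 1.41 at 0 reads to 1.11 at 1 to 9, 0.70 at 20 to 49 and 0.38 at 500 or more, slightly above the ancient L1 value in the last. All repeat elements together went from 0.73 at 0 reads to 0.40 at 1 to 9, 0.07 at 20 to 49 and −0.13 at 100 to under 500. At 500 or more they were at −0.002, so the decline did not continue there. Alu ran the other way, from −0.76 at 0 reads to −0.25 at 500 or more. L1ME was above L1MA at every level, with 1.20 against 0.90 at 20 to 49 reads and 0.69 against 0.24 at 500 or more.

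The same sorting changed the reading of siStau1 DAC over siLuc DAC. Ancient L1 elements without a read in siLuc DMSO had a log2 ratio of −1.40, from 391292 siLuc DAC reads and 178124 siStau1 DAC reads, and those with 20 to 49 reads −0.33. Among elements with 100 to under 500 reads in siLuc DMSO the value was −0.11, close to the −0.12 of primate L1. The 151 elements with 500 or more reads had 0.12, which was 0.05 without the 1 element with the most reads. L2 went from −0.78 at 0 reads to 0.02 at 500 or more, and all repeat elements from −0.61 at 0 reads to −0.24 at 1 to 9 and 0.02 at 20 to 49. All repeat elements were at 0.15 at 100 to under 500 and −0.05 at 500 or more. Alu had 0.40 at 0 reads and 0.24 at 500 or more. A wider difference among elements with few or no reads in siLuc DMSO was therefore not particular to ancient L1.

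**Figure D4:**
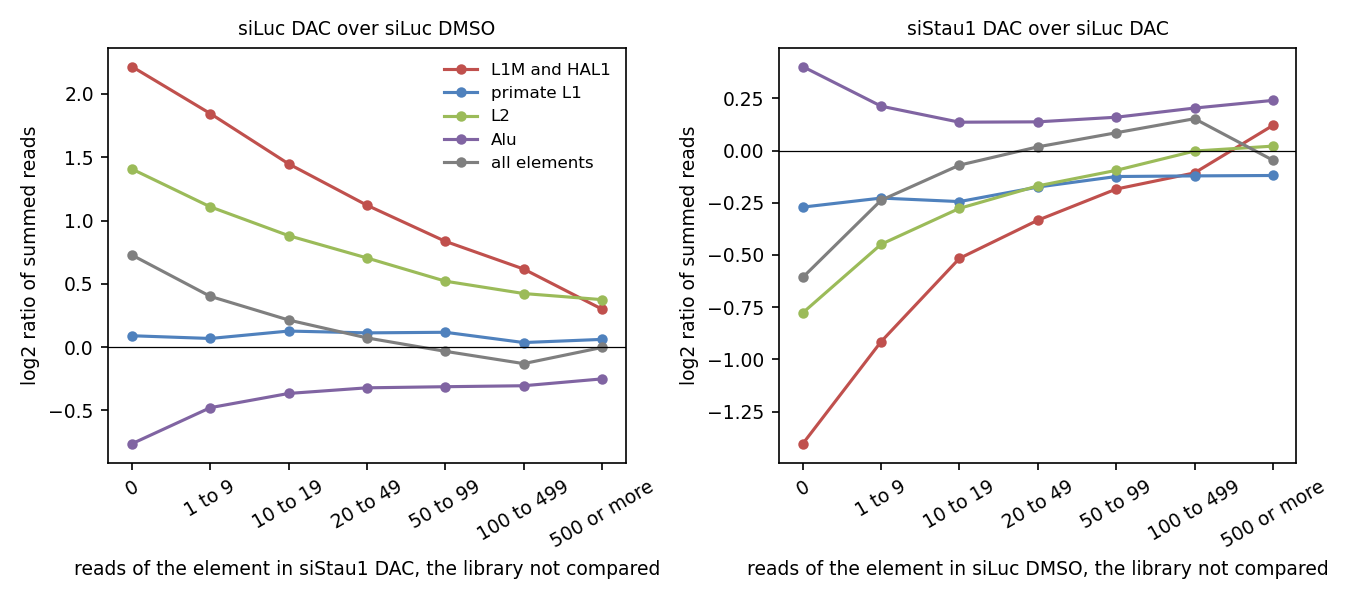
Log2 ratio of summed reads (vertical axis) by the reads an element had in the library that is not compared (horizontal axis), for siLuc DAC over siLuc DMSO (left) and siStau1 DAC over siLuc DAC (right). On the left ancient L1 goes from 2.22 to 0.30 and primate L1 stays between 0.04 and 0.13; on the right ancient L1 goes from −1.40 to 0.12.

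Element by element, 31017 ancient L1 elements (3.90% of the set) had at least 20 reads in siLuc DMSO and siLuc DAC together. Elements can pass this filter through the library in which they are high, and 2319 of them had 0 reads in siLuc DMSO and 315 had 0 in siLuc DAC, so the counts are a description. Of the 31017, 19302 (62.2%) were more than 2-fold higher in siLuc DAC and 1315 (4.24%) more than 2-fold lower, where all repeat elements had 21.3% and 17.0%. The median log2 ratio was 1.45 (quartiles 0.50 and 2.61), against 0.01 over all elements. With the filter placed on siStau1 DAC instead, a choice made after seeing the data, 17319 elements passed and the median was 0.92. Then 47.4% were above 2-fold and 7.72% below, beside 15.8% and 18.1% of all elements. Primate L1 had 19.1% above and 26.2% below by that filter.

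For siStau1 DAC over siLuc DAC, 37042 ancient L1 elements passed, of which 2937 (7.93%) were more than 2-fold higher and 14424 (38.9%) more than 2-fold lower, beside 15.5% and 14.8% of all elements. The median was −0.66. With the filter on siLuc DMSO instead, 9794 elements passed, the median was −0.15, and 10.8% were above and 14.1% below 2-fold, beside 16.6% and 6.46% of all elements. The size of this difference thus rested largely on which elements were admitted. Over all elements admitted by siLuc DMSO reads the median was 0.16, above the ancient L1 value.

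For siStau1 DAC over siLuc DMSO, 24455 elements passed with a median of 0.64, and 8820 (36.1%) were above 2-fold and 918 (3.75%) below, beside 14.5% and 8.27% of all elements. With the filter on siLuc DAC, 23548 passed with a median of 0.69, and 39.5% were above and 5.51% below, beside 14.9% and 5.00% of all elements. Here the choice of filter moved the values little.

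**Figure D5:**
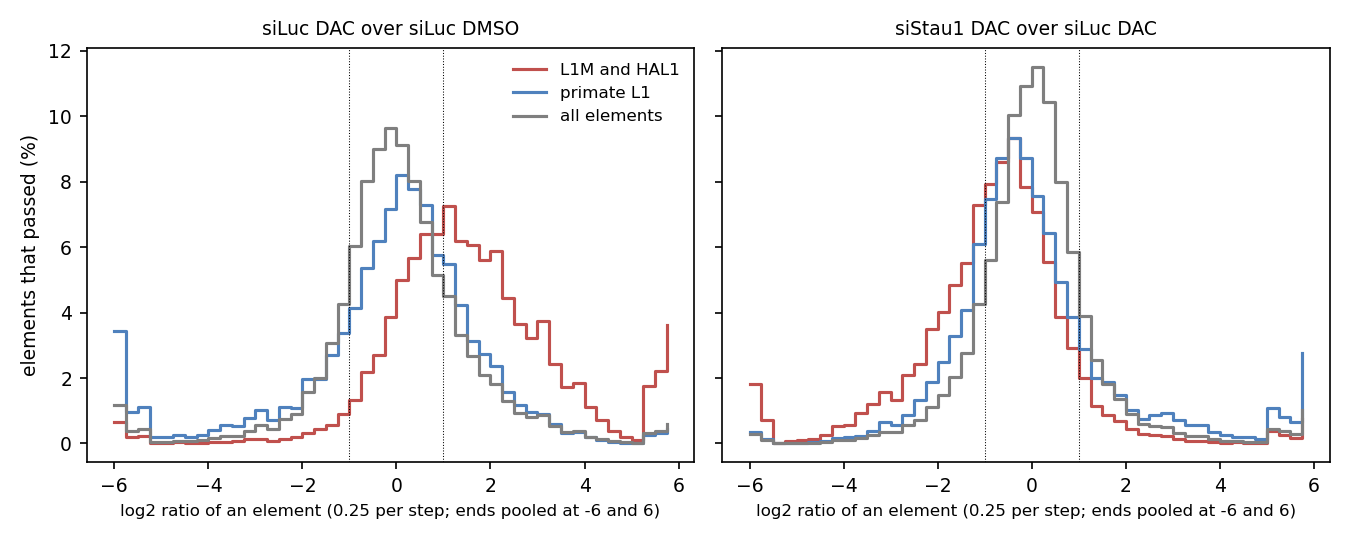
Distribution of log2 ratios among the elements whose 2 compared libraries together hold at least 20 reads (vertical axis, % of elements that passed), for siLuc DAC over siLuc DMSO (left) and siStau1 DAC over siLuc DAC (right); dotted lines mark 2-fold. On the left the ancient L1 curve is centred at a median of 1.45 and the curve of all elements at 0.01.

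The most heavily read single copies differed less between siLuc DAC and siLuc DMSO than the whole set did. Element names are those of the deposited tables, whose numbers are not explained there, and no positions are given, so these copies cannot be placed in the genome. L1MB7_1386_7 had 12806 reads with siLuc DMSO, 11138 with siLuc DAC and 24459 with siStau1 DAC, the highest count of the set in siLuc DMSO and in siStau1 DAC. L1MA5_7885_2 had 10512, 13231 and 14596 reads and was the highest in siLuc DAC. The next were 3 L1MC4 copies: L1MC4_578_2 with 3800, 2936 and 4789 reads, L1MC4_554_2 with 3356, 3676 and 3773, and L1MC4_568 with 2498, 3259 and 4056. In unscaled reads, none of the 5 had siLuc DAC over 1.5 times siLuc DMSO, and 2 of them had fewer reads in siLuc DAC than in siLuc DMSO. Scaling by a library factor moves these copies and the whole set alike.

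Some copies were missing from a single library. Of 9025 ancient L1 elements with at least 20 reads in both siLuc DMSO and siStau1 DAC, 251 (2.78%) had 0 reads in siLuc DAC, compared with 5.94% of primate L1 and 2.15% of all elements. The gap was most frequent in L1MA, with 75 of 1097 (6.84%), and in L1M without a letter, with 76 of 1554 (4.89%), and less frequent in L1ME, with 32 of 2314 (1.38%). L1M1_6867 had 416 reads with siLuc DMSO, 0 with siLuc DAC and 493 with siStau1 DAC, L1M1_20992_2 had 334, 0 and 248, and L1MC4_6343_2 had 314, 0 and 547. L1MDa_10368, with 250, 0 and 398 reads, was among the 3 highest in siStau1 DAC over siLuc DAC, with L1MC4_6343_2 and L1M1_6867. These are the members of the gap already described for the siLuc DAC library as a whole.

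The opposite pattern, 0 reads in siLuc DMSO with at least 20 in both other libraries, was met by 126 of 13434 ancient L1 elements (0.938%), against 0.1501% of primate L1 and 0.202% of all elements. The 3 copies highest in siLuc DAC over siLuc DMSO had no siLuc DMSO read, which a ranking by this ratio favours. They therefore add nothing to that count, and not all reached 20 reads in siStau1 DAC. L1MC4_887_2 had 0 reads with siLuc DMSO, 161 with siLuc DAC and 26 with siStau1 DAC. L1MEc_3737_2 had 0, 141 and 11, and L1M1_12006_3 had 0, 114 and 32. The copies lowest in siStau1 DAC over siLuc DAC had few reads in siLuc DMSO too: L1MEd_1514_5 had 5 reads with siLuc DMSO, 147 with siLuc DAC and 2 with siStau1 DAC, L1MD2_3302 had 0, 106 and 2, and L1M4_4224 had 5, 99 and 2. No ancient L1 element with at least 20 reads in both siLuc libraries, of 8388, was at 0 in siStau1 DAC, where 13 of 309264 elements of all kinds were.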

How the data were processed

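The members, gene lists and comparisons were chosen with earlier results of these data known. Per the submitters' processing notes, the series used HISAT2 2.1.0, featureCounts, DESeq 1.36.0, Cuffdiff 2.2.1 and build hg38, with no role or order given; how reads that match several copies were shared is not given in the sources used here. The authors deposited 3 tables of repeat elements, 1 per pair of J2 libraries. In the deposited siLuc DMSO column every count has 1 added. For siLuc DAC and siStau1 DAC the deposited signal is that sum multiplied by a library factor (1.92 and 1.27). Dividing by the column minimum and subtracting 1 gave whole reads for 100.0% of values (tolerance 1e-06), identical in the 2 tables of a library. The remaining value column, a deposited score, is the authors' logarithm to base 1.5 of the ratio and was not used. Even low counts outnumbered odd ones (39912 against 16009 ancient L1 elements up to 6 reads, siLuc DMSO), so intervals took 2 reads, a pair of mates, as 1 draw. Whether reads carry molecular identifiers is not given in the sources used here.

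Log2 ratios compare reads divided by the library's sum over all repeat elements. For single elements 0.5 reads were added and at least 20 reads in the 2 libraries together required. No count model was fitted and no test made, because each condition has 1 J2 library. Named subfamilies are the top one by reads in each group and the 5 highest and 5 lowest in each of the first 2 comparisons; named elements are the 5 with the most reads and the 3 highest and 3 lowest among those with at least 100 reads in the pair; L1M2a_10455 and the numbered L1MA series were added after their values were seen. For total RNA the authors deposited FPKM per group of 2 libraries, with p-values and q-values, in the layout of Cuffdiff per the file headers; depth is unknown, only STAU1 and the markers were read, and 1 column of group values (the second of each row) was not used, which leaves out siStau1 DMSO. Shares have Wilson intervals and ratios exact binomial ones, at 95%. Functions were tested on simulated data. Python 3.11.15, numpy 2.4.6, pandas 2.3.3, scipy 1.17.1 and matplotlib 3.10.9 were used.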

Additional observations from a re-analysis of the deposited data

How the results depend on the processing

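No paired analysis was possible because each J2 condition has 1 library and the total RNA table has 1 value per group, so no replicate could be left out either. No alternative run on the whole set changed a direction. Subfamilies were not recounted under the other scalings, which would turn some of those with small log2 ratios. For single subfamilies, leaving out the top element turned L1M3e in both comparisons (−0.10 to 0.05 and 0.07 to −0.12). It also turned L1M2b in both (0.00 to −0.23 and −0.08 to 0.05) and L1M3de in siStau1 DAC over siLuc DAC (0.08 to −0.01). The log2 ratio of summed ancient L1 reads for siLuc DAC over siLuc DMSO (1.06) was 1.95 with the authors' factors, 0.74 scaled to reads outside Alu, 1.08 without members at 0 in siLuc DAC alone and 1.07 without the member with the most reads. For siStau1 DAC over siLuc DAC (−0.52) these values were −0.84, −0.31, −0.53 and −0.53, and for siStau1 DAC over siLuc DMSO (0.55) the first 2 were 1.11 and 0.43. The median over elements for siLuc DAC over siLuc DMSO (1.45) was 2.34 with the authors' factors, 1.13 outside Alu, 1.05 with at least 50 reads, 2.01 with at least 1 read, 1.41 with 1 read added and 0.92 with the filter on siStau1 DAC, which was added after seeing the data. For siStau1 DAC over siLuc DAC (−0.66) it was −0.98, −0.45, −0.42 with at least 50 reads, −1.22 with at least 1 read and −0.15 with the filter on siLuc DMSO. Counts above 2-fold in siLuc DAC over siLuc DMSO (19302, 62.2% of 31017) were 6223 of 12051 (51.6%) with at least 50 reads. With at least 1 read they were 106525 of 156773 (67.9%). With the filter on the third library they were 8213 of 17319 (47.4%), beside 15.8% of all elements. Counts below 2-fold (1315, 4.24%) were 668 (2.15%) with the authors' factors, 429 (3.56%) with at least 50 reads and 22273 (14.2%) with at least 1 read. In siStau1 DAC over siLuc DAC, the count above 2-fold (2937) was 879, 35292 and 1062 with at least 50 reads, at least 1 read and the filter on the third library, and the count below (14424) was 4098, 90635 and 1379. Fewer or more elements tested account for part of these differences in count by construction. Depth limits single copies most: the median ancient L1 element with a read had 4 reads with siLuc DMSO, 5 with siLuc DAC and 4 with siStau1 DAC.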

Other observations

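Ancient L1 copies with J2 reads tended to be listed beside other repeats with reads. The row order of the deposited tables is not explained, so this describes neighbours in the list and not in the genome. In siLuc DMSO, 63.5% of the 9794 ancient L1 elements with at least 20 reads had an adjacent row with at least 20 reads, against 7.51% of the 713456 elements without a read. In siLuc DAC the shares were 68.1% and 4.04%, and in siStau1 DAC 67.2% and 6.88%. The same shares were not computed over all repeat elements, so the pattern is not shown to be particular to ancient L1.

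The 69384 ancient L1 elements listed next to an Alu row with at least 20 reads in siStau1 DAC had a read in 38.2% of cases in siLuc DMSO and 60.3% in siLuc DAC. Those with no Alu row beside them, 421592 elements, had a read in 7.46% and 13.2% of cases. The log2 ratio of summed reads for siLuc DAC over siLuc DMSO was 1.18 in the first set and 0.95 in the second. Elements beside an Alu row with fewer reads had 1.02. Ancient L1 was thus higher in siLuc DAC both with and without a read Alu row listed next to the element. The row order is not explained, so this does not describe nearness to Alu in the genome. The part of Alu in the difference was not tested, and the difference between these sets has no test.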
